A study of Mus musculus with 16 samples.

Results

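The Meis, Pbx and Pknox genes encode homeodomain cofactors of the Hox proteins, and 7 of them, Meis1, Meis2, Meis3, Pbx2, Pbx3, Pknox1 and Pknox2, were followed in mouse embryonic stem cells (ES) and in the embryoid bodies (EBs) formed from them. They were taken by gene name from the 27807 genes of the expression table. Each had a mean of at least 10 normalised read counts, so that all 7 were among the 16124 genes tested. Other genes of these families were not analysed here.

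Poly-A RNA was sequenced in 16 libraries, in 8 groups of 2. WT lines carry the label Taf4+/+ and KO lines the label Taf4-/-, for a null allele of Taf4a, which encodes a subunit of the general transcription factor TFIID. The KO lines still have the paralogue Taf4b. The labels name no transgene and no further allele in any group. All lines came from blastocysts of crosses between heterozygous Taf4a mice, with 2 independent lines of each genotype, and ES cultures of both genotypes grew on mouse embryonic fibroblast feeders with LIF, the cytokine that maintains pluripotency. EBs, which are floating aggregates of differentiating cells, were taken just ahead of retinoic acid (EB4), once it had acted for a day (EB5) and at a later point of the treatment (EB8, labelled as neural precursors). A group thus holds 2 libraries, and a p-value measures the spread between libraries that may be lines or cultures, as the labels do not tie a replicate number to a line. The main fit did not pair same-numbered libraries. In KO, however, the genes of chromosome 11 lay above their mean in replicate 1 at all 4 stages and not in replicate 2. Setting KO beside WT stage by stage asks what loss of Taf4a does to these transcripts, and the comparison of successive stages follows their course under retinoic acid.

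The 7 proteins belong to the TALE class of homeodomain proteins, named for an extended loop between the first and the second helix of the homeodomain. Pbx proteins bind DNA together with Hox proteins and sharpen their choice of site. Meis and Pknox (also called Prep) proteins bind Pbx, keep it in the nucleus and join it on Hox target genes. In the embryo these complexes act with the anterior Hox genes in the hindbrain and spinal cord, where retinoic acid induces both Hox and Meis genes.

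The stretch of the homeobox that starts at the loop is shown for each gene because it lies in a conserved part of these transcripts, where reads of 1 member could be counted for another. The sequences are of the reference genome, build NCBI37, 5′ to 3′ on the coding strand, 96 bases each, with the codons of the loop in capitals.
Meis1: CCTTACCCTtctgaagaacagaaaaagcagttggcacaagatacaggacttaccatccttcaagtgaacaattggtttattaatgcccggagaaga
Meis2: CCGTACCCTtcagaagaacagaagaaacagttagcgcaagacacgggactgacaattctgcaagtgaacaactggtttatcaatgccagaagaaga
Meis3: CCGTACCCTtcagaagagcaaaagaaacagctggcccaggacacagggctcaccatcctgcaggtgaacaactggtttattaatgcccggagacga
Pbx2: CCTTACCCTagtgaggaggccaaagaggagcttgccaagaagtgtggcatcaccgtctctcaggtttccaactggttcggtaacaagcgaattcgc
Pbx3: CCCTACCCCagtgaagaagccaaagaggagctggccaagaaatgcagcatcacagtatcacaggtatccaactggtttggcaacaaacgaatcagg
Pknox1: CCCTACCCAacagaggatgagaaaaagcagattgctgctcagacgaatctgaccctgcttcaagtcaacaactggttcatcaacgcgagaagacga
Pknox2: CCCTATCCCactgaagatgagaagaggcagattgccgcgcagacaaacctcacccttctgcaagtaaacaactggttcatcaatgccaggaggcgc

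Each stretch is coding sequence in 2 exons. Those of Meis1 are at chr11:18805692-18805765 and chr11:18785633-18785654, and those of Meis2 at chr2:115747408-115747481 and chr2:115694518-115694539, all on the minus strand. Meis3 has them at chr7:16769143-16769216 and chr7:16769387-16769408 and Pbx2 at chr17:34731600-34731662 and chr17:34731746-34731778, on the plus strand. Those of Pbx3 are at chr2:34060300-34060362 and chr2:34033830-34033862 (minus), those of Pknox1 at chr17:31739734-31739807 and chr17:31740132-31740153 (plus) and those of Pknox2 at chr9:36702896-36702969 and chr9:36702062-36702083 (minus). The exon junction follows base 74 of the stretch in the Meis and Pknox genes and base 63 in Pbx2 and Pbx3.

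Within a family the stretches were 80.2% to 83.3% identical, with 80 of 96 bases shared by each pair of Meis genes, 78 by Pbx2 and Pbx3 and 77 by Pknox1 and Pknox2. Between Meis and Pknox genes the identity was 65.6% to 70.8%, and Pbx genes shared 49.0% to 59.4% of bases with the other families. The longest run of identical bases in any pair was 21, between Meis1 and Meis3, against reads of 54 bases. Among all stretches of 54 bases in the annotated protein-coding transcripts of the members, 0 were shared between 2 members. Transcripts not annotated as protein-coding, of the members or of other genes, were not searched. Pbx2 shared 5.12% of its stretches with another gene, Gpsm3, with which it has 227 exon bases in common on the same strand, and Gpsm3 had 22.2 to 195 normalised read counts in the 16 libraries against 1283 to 6930 for Pbx2. Meis1 has 896 exon bases opposite Gm16140, which had 0 to 3.79 normalised read counts. The library kit does not mark strand, so that reads of both strands could not be told apart.

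Sequence upstream of a start site is shown for Meis1 and Meis2, the members with the largest change after retinoic acid, and for Pbx2, the most abundant member. These are 180 bases on NCBI37 that lie before a RefSeq start and hold no annotated exon, at chr11:18918973-18919152 (minus strand), chr2:115890358-115890537 (minus strand, ending 2 bases before the start) and chr17:34729024-34729203 (plus strand). The Meis1 stretch lies outside the annotated gene, and those of Meis2 and Pbx2 lie inside the span of their genes, upstream of an internal start. Capitals mark the motifs found, and CCGCCC in Pbx2 is GGGCGG read from the opposite strand.
Meis1: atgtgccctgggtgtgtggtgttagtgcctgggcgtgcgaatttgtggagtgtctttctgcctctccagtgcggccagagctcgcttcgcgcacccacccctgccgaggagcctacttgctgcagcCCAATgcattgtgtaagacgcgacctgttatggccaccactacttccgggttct
Meis2: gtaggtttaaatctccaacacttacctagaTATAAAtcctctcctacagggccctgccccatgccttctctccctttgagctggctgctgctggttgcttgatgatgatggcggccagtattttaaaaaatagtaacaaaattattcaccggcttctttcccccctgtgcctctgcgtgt
Pbx2: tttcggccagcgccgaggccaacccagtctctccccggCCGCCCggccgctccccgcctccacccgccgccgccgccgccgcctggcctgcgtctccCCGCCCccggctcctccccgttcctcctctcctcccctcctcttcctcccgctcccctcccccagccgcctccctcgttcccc

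Motifs were searched on both strands of the 250 bases before the start in the RefSeq promoter table, which held 4 of the 7 genes (Meis1, Meis2, Meis3 and Pbx2). None of the 6 motifs searched overlapped another in these windows. Meis1 had CCAAT starting at base -54, which 33.8% of all 32851 promoter windows also hold. Meis2 had TATAAA at base -152 (12.4% of all windows) and CCAAT on the opposite strand at base -210, outside the stretch shown. Pbx2 had GGGCGG on the opposite strand at bases -142 and -83 (32.7% of all windows). The sequences AGGTCA (14.0% of all windows), TGACAG, the Meis site (15.9%), and TGATTGAC (0.691%) were in none of the 4 windows, and Meis3 had none of the 6. These are short exact sequences, so sites of retinoic acid receptors, Pbx or Hox proteins with other sequences were not searched. The Pbx2 window was 77.6% G and C, the Meis3 window 63.6%, the Meis1 window 59.6% and the Meis2 window 47.6%, against a median of 52.4% over all windows.

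In WT cells the cofactors followed different courses. Meis1 and Meis2 were low in ES and EB4 and rose steeply on the first day of retinoic acid. Pbx2 rose before and during that day, Pbx3 rose before retinoic acid and again towards EB8, Pknox2 rose at EB5, and Pknox1 rose from EB5 to EB8. In KO cells Meis1, Meis2 and Pbx2 also rose on the first day, whereas no member passed the test for the steps from ES to EB4 and from EB5 to EB8.

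All values are normalised read counts, that is reads scaled by a size factor per library. Differences are log2 differences between group means of log2(normalised count + 1), tested with limma over all 16 libraries and called at a Benjamini-Hochberg adjusted p under 0.05 over 16124 genes. Depth was 22442118 to 40711826 reads in genes per library, deepest in ES. In such bulk samples fewer cells of a type and less RNA per cell cannot be told apart.

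In the comparison of KO with WT, 0 members passed the test at ES, where 0.0% of all tested genes did, 1846 genes had an unadjusted p under 0.05 and DESeq2 called 469. At EB4 2 members, Pbx2 and Pbx3, were lower in KO, against 3.37% of all tested genes (6.12% in either direction). At EB5 the same genes, Pbx2 and Pbx3, were lower, against 2.17% of all genes (4.34% in either direction). At EB8 both were again lower, 2 of 7 members against 12.5% of all genes (22.9% in either direction). Upper-quartile rescaling raised the median difference of all genes at EB8 from -0.03 to 0.11 and the share of higher calls from 45.4% to 58.5%. Under that rescaling all 7 members kept the sign of their difference at EB8.

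The median difference over the 7 members was -0.67 at ES, -0.96 at EB4, -1.15 at EB5 and -1.04 at EB8, against medians over all tested genes between -0.03 and 0.00. Both KO libraries lay below both WT libraries for 5 members at ES (20.7% of all genes), 3 at EB4 (26.6%), 6 at EB5 (28.1%) and all 7 at EB8 (33.5%). Pknox1 was the only member with both KO libraries above both WT libraries, at ES (19% of all genes), EB4 (25.3%) and EB5 (26.7%).

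**Figure D1:**
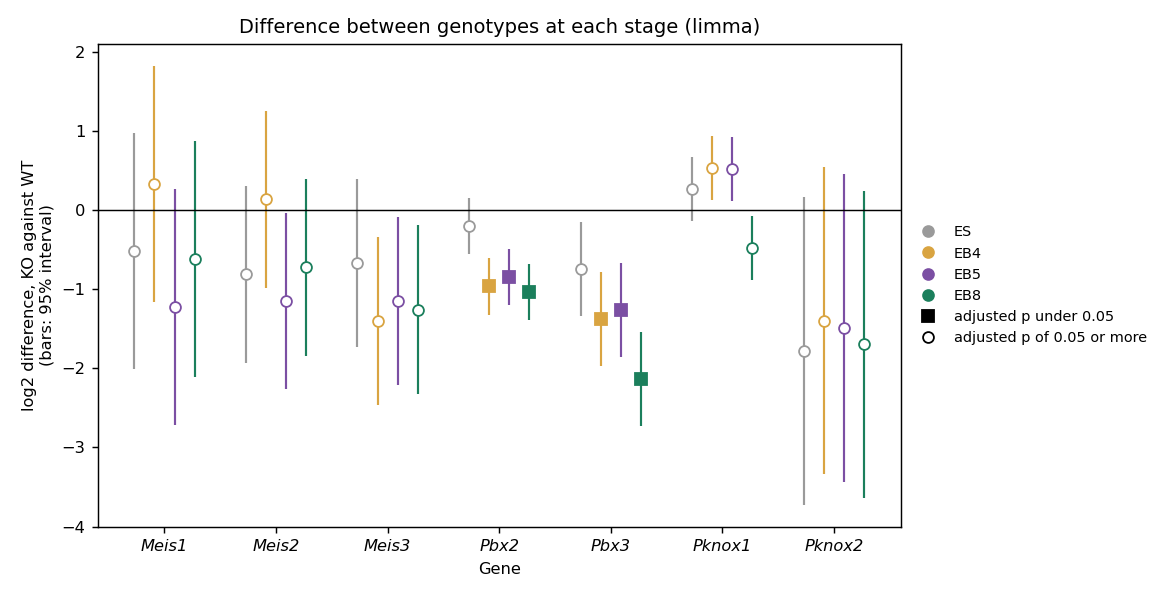
Log2 difference between KO and WT (y axis) for the 7 cofactor genes (x axis) at the 4 stages (colours), with 95% intervals from limma, 2 libraries per group. Filled squares, which are Pbx2 and Pbx3 at EB4, EB5 and EB8, passed the test, and the widest intervals are those of Pknox2 and Meis1.

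Of the steps between stages, ES to EB4 gave 2 called members in WT, Pbx2 and Pbx3, both rises, against 8.98% of all genes called as rises, and 0 in KO, where 3.5% of all genes were called in either direction. From EB4 to EB5 4 members rose in WT (Meis1, Meis2, Pbx2 and Pknox2) against 2.59% of all genes, and 3 rose in KO (Meis1, Meis2 and Pbx2) against 1.82%. From EB5 to EB8 2 members rose in WT (Pbx3 and Pknox1) against 5.82% of all genes, and 0 changed in KO against 0.738% of all genes called in either direction. The genotype difference in these changes, tested as an interaction term, was called for 0 members in each of the 3 steps, against 0.0%, 0.0% and 0.781% of all genes. A step that passed in WT and not in KO was therefore not shown to differ between genotypes. For these terms 1 member had an unadjusted p under 0.05 at ES to EB4 (Pbx2), against 7.00% of all genes, 0 at EB4 to EB5 against 2.96%, and 2 at EB5 to EB8 (Pbx3 and Pknox1) against 9.72%. EdgeR called none of them, and DESeq2 called Pknox1 at EB5 to EB8.

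**Figure D2:**
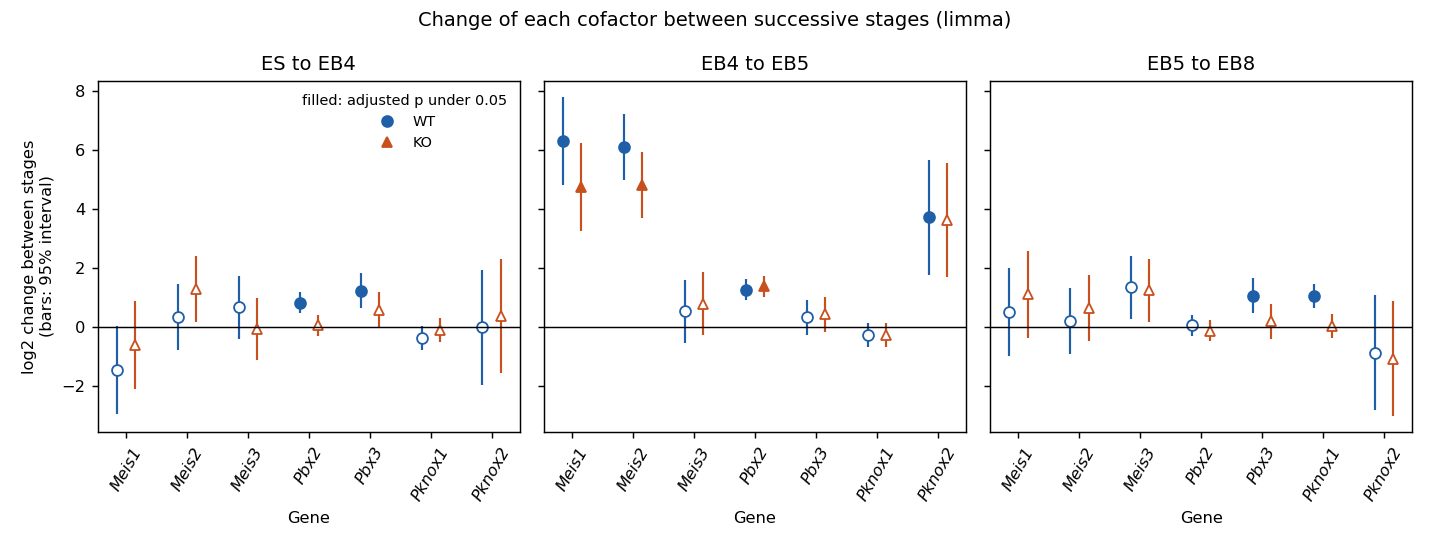
Log2 change (y axis) of each cofactor (x axis) between successive stages in WT (circles) and KO (triangles), with 95% intervals from limma. Filled symbols passed the test, and the changes of Meis1 and Meis2 from EB4 to EB5, 6.31 and 6.09 in WT, stand far above those of the other steps.

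Pbx2 and Pbx3 encode the Pbx partners. Pbx2 (chromosome 17, 34728211 to 34734345, plus strand) is a compact gene and Pbx3 (chromosome 2, 34026977 to 34228660, minus strand) a long one. In WT, Pbx2 had 1677 and 1331 normalised read counts in ES, 2612 and 2630 in EB4, 5689 and 6840 in EB5 and 5952 and 6930 in EB8. In KO it had 1311 and 1283 in ES, 1401 and 1286 in EB4, 3749 and 3207 in EB5 and 3372 and 2908 in EB8. The KO libraries lay below the WT libraries of the same stage at each stage, with the smallest gap in ES, and the KO EB4 libraries lay within the range of the ES libraries.

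The difference between KO and WT in Pbx2 was -0.20 ± 0.16 (SE) at ES (limma adjusted p = 0.683). It was -0.96 ± 0.16 at EB4 (adjusted p = 0.0101), where KO had 51.3% of the WT mean. At EB5 it was -0.85 ± 0.16 (adjusted p = 0.0184, 55.5% of WT) and at EB8 -1.04 ± 0.16 (adjusted p = 0.000998, 48.8% of WT). From ES to EB4 Pbx2 rose by 0.81 ± 0.16 in WT (adjusted p = 0.00745) and had a change of 0.05 ± 0.16 in KO (adjusted p = 0.906). Between these steps the genotypes differed by -0.76, with a 95% interval of -1.26 to -0.26 and an adjusted p of 0.543. On the first day of retinoic acid Pbx2 rose by 1.25 in WT (adjusted p = 0.000892) and by 1.37 in KO (adjusted p = 0.000830), with a 95% interval of -0.39 to 0.62 for the difference.

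Pbx3 had 450 and 423 normalised read counts in ES of WT, 1117 and 914 at EB4, 1206 and 1324 at EB5 and 1893 and 3644 at EB8. KO libraries had 265 and 256 in ES, 381 and 398 in EB4, 626 and 438 in EB5 and 572 and 620 in EB8. At every stage both KO libraries lay below both WT libraries, and the highest KO value, 626, lay below the lowest WT value of any EB stage. The 2 WT EB8 libraries were the farthest apart, 2769 ± 1238 (SD, n = 2), against 596 ± 34.0 in KO.

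The difference in Pbx3 was -0.74 ± 0.27 (SE) at ES (limma adjusted p = 0.327), -1.37 ± 0.27 at EB4 (adjusted p = 0.0169) and -1.27 ± 0.27 at EB5 (adjusted p = 0.0265). At EB8 it was -2.14 ± 0.27 (adjusted p = 0.000295), a 4.41-fold difference and the largest of any member at that stage. In WT Pbx3 rose by 1.21 from ES to EB4 (adjusted p = 0.0123) and by 1.05 from EB5 to EB8 (adjusted p = 0.0289). The changes in KO over the same steps were 0.58 (adjusted p = 0.244) and 0.18 (adjusted p = 0.863). The genotype difference in the step from EB5 to EB8 was -0.87 (95% interval -1.71 to -0.03, adjusted p = 0.484).

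The calls at EB4 and EB5 rested on few libraries. Without KO EB4 replicate 2, neither Pbx2 (-0.90, adjusted p = 0.118) nor Pbx3 (-1.40, adjusted p = 0.132) passed at EB4, and Pbx3 also failed without KO EB4 replicate 1 (adjusted p = 0.0525) or WT EB4 replicate 1 (adjusted p = 0.0830). At EB5 both failed without WT EB5 replicate 2 (adjusted p = 0.144 and 0.161) or KO EB5 replicate 2 (0.239 and 0.320), and Pbx3 without WT EB5 replicate 1 (0.0816). At EB8 both passed whichever library was left out, with adjusted p up to 0.0152 for Pbx2 and 0.00383 for Pbx3. The WT rise of Pbx3 from EB5 to EB8 failed without WT EB8 replicate 2, where it was 0.58 (adjusted p = 0.262), and without either WT EB5 library (adjusted p = 0.170 and 0.0782). Its rise from ES to EB4 failed without WT EB4 replicate 1 (adjusted p = 0.0710).

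**Figure D3:**
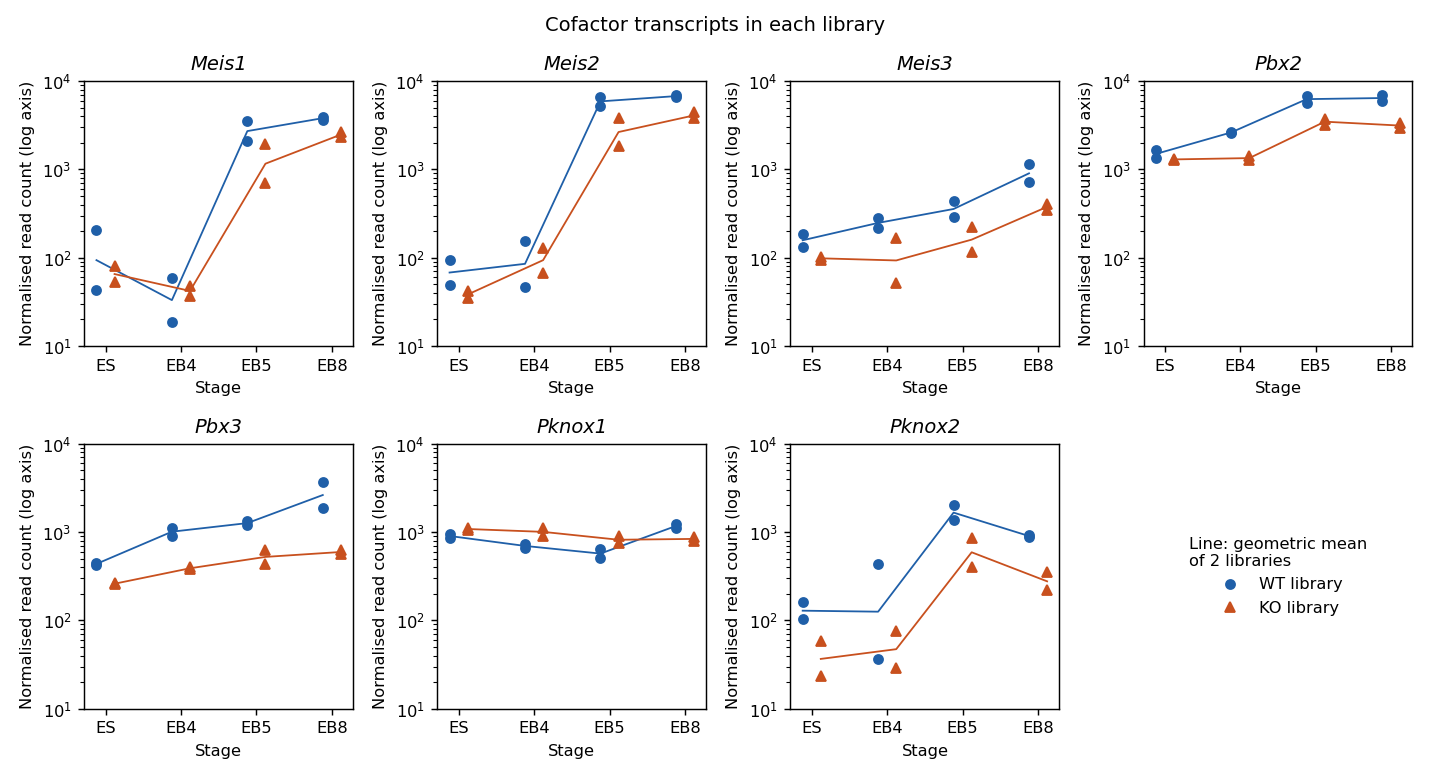
Normalised read count (log y axis) of each cofactor in each of the 16 libraries, by stage (x axis), with WT libraries as circles, KO libraries as triangles and lines through the geometric mean of the 2 libraries of a group. Pbx3 lies lower in KO at every stage, Meis1 and Meis2 climb between EB4 and EB5 in both genotypes, and Pknox1 crosses from above to below WT between EB5 and EB8.

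Meis1, Meis2 and Meis3 encode the Meis partners of Pbx. Meis1 (chromosome 11, 18780433 to 18918961, minus strand) had 205 and 43.1 normalised read counts in WT ES and 18.6 and 59.0 in WT EB4, the lower of which was 17 reads. WT values climbed to 2082 and 3534 at EB5 and were 3654 and 3950 at EB8. The KO values were 79.7 and 53.6 in ES, 47.9 and 37.0 in EB4, 1922 and 700 in EB5 and 2340 and 2622 in EB8. The genotypes overlapped in ES and EB4, and in EB5 and EB8 both KO libraries lay below both WT libraries, by a narrow margin at EB5 (1922 against 2082).

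Meis1 rose from EB4 to EB5 by 6.31 ± 0.69 (SE) in WT, a 79.1-fold change (limma adjusted p = 0.000233), and by 4.75 ± 0.69 in KO, a 26.9-fold change (adjusted p = 0.00266). The genotype difference in that rise was -1.55, with a 95% interval of -3.66 to 0.55. The difference between KO and WT was -0.52 at ES, 0.33 at EB4, -1.22 at EB5 and -0.62 at EB8, each with an SE of 0.69 and limma adjusted p of 0.831, 0.815, 0.340 and 0.558. KO had 46.7% of the WT mean at EB5 and 65.2% at EB8. The 95% intervals, -2.71 to 0.26 at EB5 and -2.11 to 0.87 at EB8, hold both 0 and differences of several fold. At EB8 a fit of the WT and KO EB8 libraries alone called Meis1 (adjusted p = 0.0415).

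The genes of chromosome 11, which carries Meis1, lay 0.18 to 0.28 above their mean in KO replicate 1 at all 4 stages and -0.13 to 0.03 from it in the other 12 libraries, as the median log2 deviation. With that level subtracted, the difference in Meis1 was -1.40 at EB5 (adjusted p = 0.246) and -0.82 at EB8 (adjusted p = 0.399), against -1.22 and -0.62 before the subtraction, none of which passed. The chromosomes of the other members lay between -0.08 and 0.15.

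Meis2 (chromosome 2, 115688800 to 115891575, minus strand) had 49.1 and 94.1 normalised read counts in ES of WT, 47.1 and 154 at EB4, 5267 and 6576 at EB5 and 6971 and 6540 at EB8. Its KO values were 34.9 and 42.2 in ES, 67.8 and 130 in EB4, 3772 and 1858 in EB5 and 3777 and 4415 in EB8. The genotypes overlapped in EB4, and at the other stages both KO libraries lay below both WT libraries. WT reached its EB8 level by EB5, where the 2 groups overlapped.

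Meis2 rose from EB4 to EB5 by 6.09 ± 0.51 (SE) in WT, a 68.1-fold change (limma adjusted p = 3.91e-05), and by 4.80 ± 0.51 in KO, a 27.9-fold change (adjusted p = 0.000291). The genotypes differed in this rise by -1.29 (95% interval -2.86 to 0.29). The difference between KO and WT was -0.81 at ES (adjusted p = 0.598), 0.14 at EB4 (adjusted p = 0.907), -1.15 at EB5 (adjusted p = 0.225) and -0.73 at EB8 (adjusted p = 0.338). KO had 47.5% of the WT mean at EB5 and 60.6% at EB8, where the fit of the EB8 libraries alone called Meis2 (adjusted p = 0.0265). At EB4 the sign turned with edgeR and with DESeq2 (-0.03 in both).

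Meis3 (chromosome 7, 16760729 to 16771853, plus strand), the shortest of the Meis genes, had 186 and 134 normalised read counts in WT ES, 217 and 283 in EB4, 286 and 444 in EB5 and 716 and 1136 in EB8. KO libraries had 102 and 95.1 in ES, 166 and 52.3 in EB4, 221 and 116 in EB5 and 351 and 404 in EB8. At each stage both KO libraries lay below both WT libraries. Its highest mean was at EB8 in both genotypes, as for Meis1 and Meis2.

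The difference between KO and WT in Meis3 was -0.67 at ES, -1.40 at EB4, -1.15 at EB5 and -1.26 at EB8 (SE 0.49 each), with limma adjusted p of 0.647, 0.110, 0.205 and 0.0837. At EB8 KO had 40.8% of the WT mean, and Meis3 passed with DESeq2 (adjusted p = 0.0285) and in the fit of the EB8 libraries alone (adjusted p = 0.0326). At EB4 it passed without KO EB4 replicate 1 (-2.22, adjusted p = 0.0274). From EB5 to EB8 the change was 1.34 in WT (adjusted p = 0.108) and 1.23 in KO (adjusted p = 0.304), and DESeq2 called the change in WT (adjusted p = 0.0352).

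Pknox1 and Pknox2 encode the Prep partners of Pbx, of which Pknox1 is broadly expressed. Pknox1 (chromosome 17, 31701718 to 31744638, plus strand) had 856 and 954 normalised read counts in WT ES, 667 and 728 in EB4, 643 and 507 in EB5 and 1114 and 1232 in EB8. In KO it had 1043 and 1126 in ES, 908 and 1114 in EB4, 745 and 900 in EB5 and 797 and 880 in EB8. Both KO libraries lay above both WT libraries at ES, EB4 and EB5 and below them at EB8.

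The difference between KO and WT in Pknox1 was 0.26 at ES (limma adjusted p = 0.638), 0.53 at EB4 (adjusted p = 0.113), 0.52 at EB5 (adjusted p = 0.135) and -0.48 at EB8 (adjusted p = 0.0807), with an SE of 0.19. In WT Pknox1 rose by 1.04 from EB5 to EB8 (adjusted p = 0.00454), while the change in KO was 0.03 (adjusted p = 0.974). The genotype difference in this step was -1.0, with a 95% interval of -1.58 to -0.43 and an unadjusted p of 0.0024. It did not pass in the test over all genes (adjusted p = 0.128) and passed with DESeq2 alone (-1.01, adjusted p = 0.0124). DESeq2 also called Pknox1 at EB4 (adjusted p = 0.0444) and EB8 (adjusted p = 0.0421).

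Pknox2 (chromosome 9, 36698570 to 36954899, minus strand) had 104 and 160 normalised read counts in WT ES and 36.2 and 436 in WT EB4, the widest spread of any member in a group relative to its mean. WT values were 1366 and 2021 at EB5 and 881 and 923 at EB8. In KO it had 23.2 and 57.9 in ES, 29.2 and 76.6 in EB4, 868 and 402 in EB5 and 218 and 352 in EB8. KO libraries lay below WT libraries at ES, EB5 and EB8 and, at EB4, within their range in part, and both genotypes had their highest level at EB5.

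The difference between KO and WT in Pknox2 was -1.78 at ES, -1.40 at EB4, -1.49 at EB5 and -1.70 at EB8, each with an SE of 0.89 and limma adjusted p of 0.479, 0.384, 0.376 and 0.195. DESeq2 called Pknox2 at EB4 (adjusted p = 0.0492). Without WT EB4 replicate 1 the difference at EB4 was -3.18 and passed (adjusted p = 0.0412), and without WT EB4 replicate 2 it was 0.38. At EB8 KO had 31.6% of the WT mean, and the fit of the EB8 libraries alone called Pknox2 (adjusted p = 0.0144). From EB4 to EB5 it rose by 3.70 in WT (adjusted p = 0.0400). The change in KO was 3.61 (adjusted p = 0.0570). It passed in some alternative fits and failed in others. Those that passed include the fit with the replicate number, which the labels do not explain, as a block. The genotype difference in this rise was -0.09, with a 95% interval of -2.84 to 2.65. The WT rise was 1.93 without WT EB4 replicate 1 (adjusted p = 0.276), and it also failed without WT EB5 replicate 1 (adjusted p = 0.111) or replicate 2 (adjusted p = 0.252), with edgeR (2.85, adjusted p = 0.112) and without the filter on low values (adjusted p = 0.0655).

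Genes were compared per kilobase of annotated exon, a length that covers every annotated transcript of a gene, used here or not. Orders and shares between genes are therefore approximate. On this scale Pbx2 was the highest member in all 8 groups and did not overlap the next in any. Its WT mean went from 413 normalised read counts per kilobase in ES to 1769 at EB8, and its KO mean from 356 to 863. Pknox1 stood next in ES and EB4 of both genotypes, at 166 to 257 per kilobase, and overlapped Pbx3 in WT EB4. By EB5 Meis2 had taken that place, at 499 per kilobase in WT and 237 in KO, and it overlapped Pknox2 in WT and Pknox1 in KO. At EB8 Meis2, Meis1 and Meis3 followed Pbx2 in both genotypes, at 569, 514 and 509 per kilobase in WT and 345, 336 and 207 in KO. Meis1 and Meis3 overlapped each other in WT, and Meis2 and Meis1 in KO. Meis3 also overlapped the next member, which was Pbx3 in WT and Pknox1 in KO. The lowest members were Meis2 in ES of both genotypes (6.03 and 3.24 per kilobase) and Meis1 in EB4 (5.25 and 5.74). Meis1 and Meis2 overlapped each other in WT ES and in EB4 of both genotypes. At EB8 Pknox2 was lowest, at 255 per kilobase in WT and 80.6 in KO, where it overlapped Pbx3.

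The sum of the 7 members was 897 and 791 per kilobase in WT ES and 725 and 739 in KO ES. The EB4 sums were 1186 and 1338 for WT against 771 and 746 for KO, and the EB5 sums 3173 and 4054 against 2249 and 1592. At EB8 WT reached 3920 and 4736 while KO reached 2094 and 2152, so that the KO libraries were lower at every stage. The shares of the families moved with stage in both genotypes. The Meis genes went from 14.9% and 11.0% of the sum in WT ES to 37.6% and 36.1% in WT EB8, and from 9.63% and 8.53% to 39.5% and 44.1% in KO. The Pknox genes went from 25.9% and 34.3% in WT ES to 13.1% and 11.7% in WT EB8, and from 35.0% and 38.4% to 12.0% and 14.3% in KO. These sums are a description and were not tested.

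**Figure D4:**
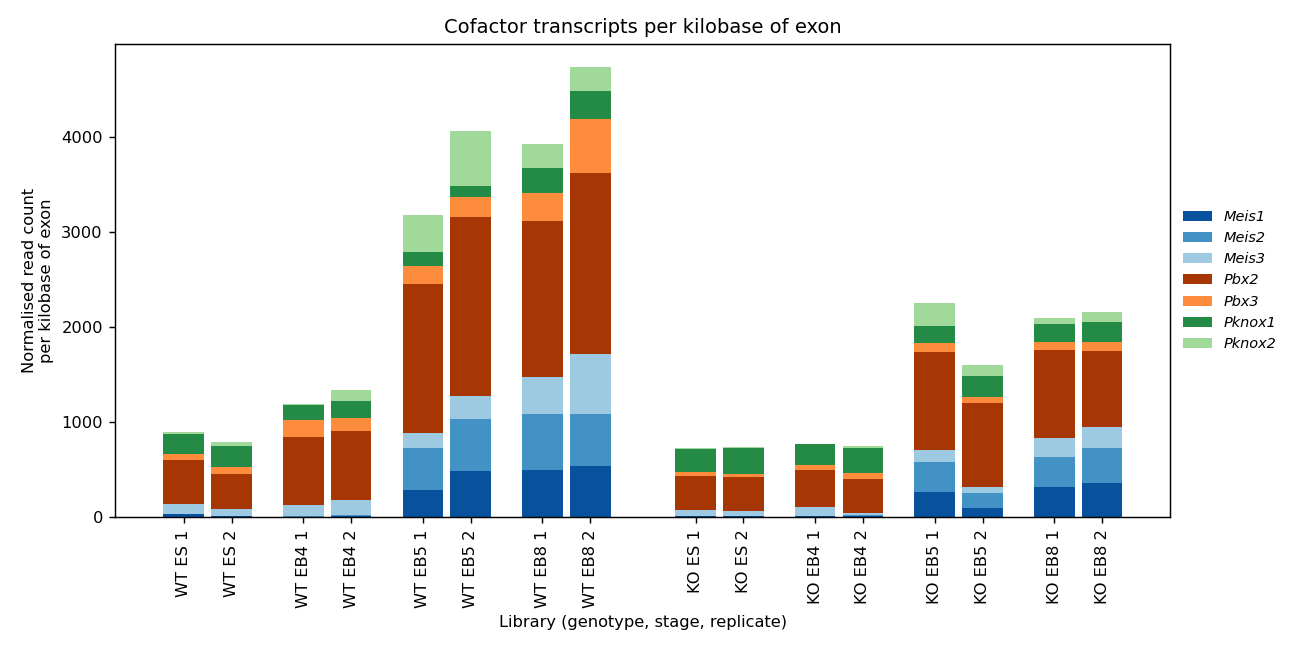
Stacked normalised read counts per kilobase of annotated exon (y axis, from 0) of the 7 cofactors in each of the 16 libraries (x axis). Pbx2 is the largest block in every bar, the Meis blocks together make up 37.6% and 36.1% of the WT bars at EB8 against 14.9% and 11.0% at ES, and the KO bars at EB8 reach 2094 and 2152 against 3920 and 4736 in WT.

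Hox genes of the anterior groups encode the partners of these cofactors, and 15 of them were examined. Before retinoic acid many were at the limit of detection, with 5 of 15 in WT ES, 7 in KO ES, 11 in WT EB4 and 9 in KO EB4 at 3 reads or fewer in both libraries. From EB4 to EB5, 14 of 15 rose in WT and 13 in KO, against 2.59% and 1.82% of all genes. At EB8 10 of 15 were lower in KO, against 12.5% of all genes, 0 were higher and 5 did not pass. The median difference of the 15 was -2.22, against -0.03 over all genes. At EB5 3 of 15 were lower, against 2.17% of all genes. The largest differences at EB8 were those of Hoxd4 (-4.45, limma adjusted p = 0.00402) and Hoxd3 (-4.41, adjusted p = 0.00206). Hoxd3 had 4789 and 6233 normalised read counts in WT EB8 and 409 and 160 in KO.

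Hoxb1, which with Pbx and Meis or Pknox proteins activates its own gene in the hindbrain, did not pass and is named here because its values pointed the other way. It had 1044 and 601 normalised read counts in WT EB8 and 4478 and 3351 in KO (2.29, adjusted p = 0.0698). The count of 10 lower Hox genes at EB8 was 3 with a pseudocount of 0.1 and 6 without the filter on low values. It was 4 without WT EB8 replicate 1, 3 without WT EB8 replicate 2 and 2 without KO EB8 replicate 2. The 3 at EB5 fell to 0 without WT EB5 replicate 2 or KO EB5 replicate 2 and to 1 without WT EB5 replicate 1.

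Of 9 other TALE genes (the Irx genes of neural and heart patterning, the repressors Tgif1 and Tgif2, and Mkx), 5 were lower and 1 higher in KO at EB8 (median -1.91). Over all genes 12.5% were called lower there. Irx5 was lower, with a difference of -4.93 (limma adjusted p = 0.000351) and 1664 and 867 normalised read counts in WT and 62.2 and 23.4 in KO. Irx6 was at 3 reads or fewer in both KO libraries and had 102 and 30.7 normalised read counts in WT. Irx2 and Irx6 met the filter on low values only through WT EB8, where their means were 39.5 and 66.3. A lower KO value at EB8 was thus favoured in advance for both, and a call of either adds no support to the count. Tgif1, named after its values were seen as the 1 gene that was higher, differed at EB5 (0.81, adjusted p = 0.0150) and EB8 (0.53, adjusted p = 0.0226). The 5 lower genes were 3 without WT EB8 replicate 2 or KO EB8 replicate 2, and the Tgif1 call was lost at EB8 without WT EB8 replicate 1, WT EB8 replicate 2 or KO EB8 replicate 2, and at EB5 without WT EB5 replicate 1, WT EB5 replicate 2 or KO EB5 replicate 2.

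The 7 genes of retinoic acid response and metabolism all rose from EB4 to EB5 in WT, and 6 rose in KO, Crabp1 being the exception (0.11). Over all genes 2.59% rose in WT and 1.82% in KO. The WT count was 5 to 7 in the alternatives that kept all libraries, and it fell in some fits without 1 library. The KO count fell in every fit without 1 of the compared libraries. At EB5 0 passed between genotypes by limma, with differences from -1.58 to -0.20. At EB8 4 were lower in KO (median -1.09), against 12.5% of all genes. These 4 were Crabp1, an intracellular binding protein of retinoic acid (-3.99, adjusted p = 0.000285), Cyp26b1, an enzyme that breaks it down (-2.66), Rarb, a receptor (-2.15), and Dhrs3, a reductase of its precursor (-1.09). At EB4 Dhrs3 alone of the 7 passed (-2.30, adjusted p = 0.00742), and that count of 1 was 0 without KO EB4 replicate 2 or with only the EB4 libraries in the fit and 2 without KO EB4 replicate 1 or with DESeq2. The other degrading enzyme, Cyp26a1, chosen after its values were seen, had 11284 and 13264 normalised read counts in WT EB8 and 16825 and 8829 in KO. The 4 calls fell to 1 without WT EB8 replicate 2, KO EB8 replicate 1 or KO EB8 replicate 2.

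**Figure D5:**
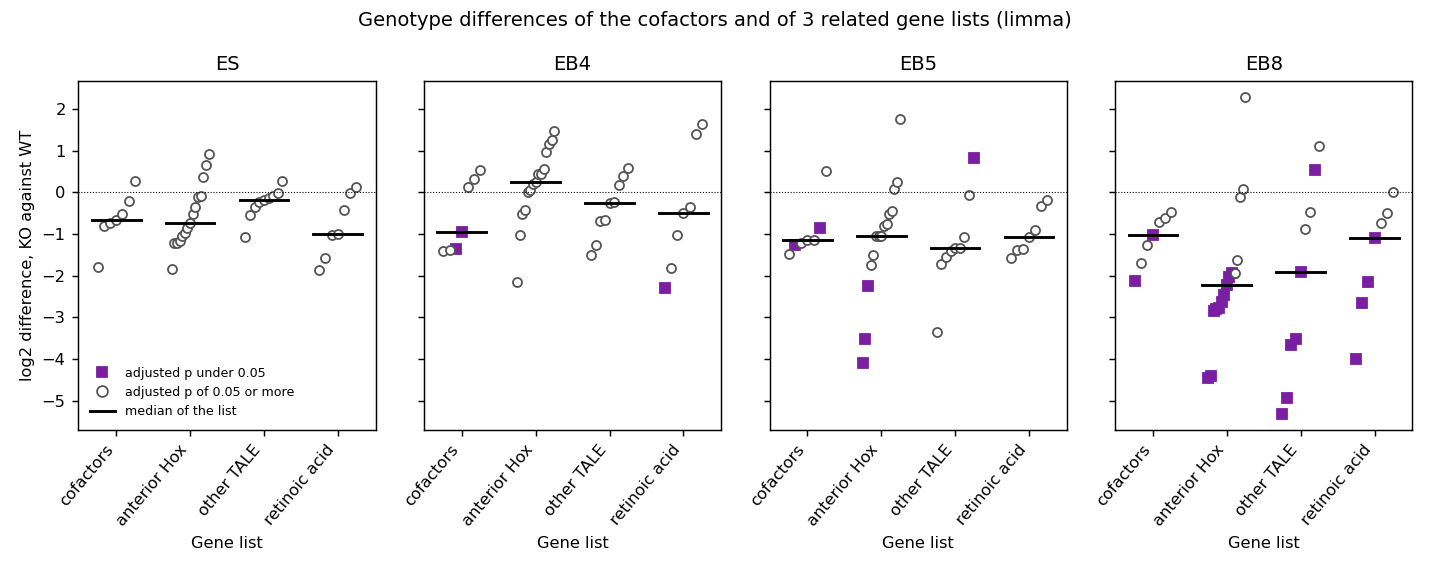
Log2 difference between KO and WT (y axis) of the 7 cofactors, 15 anterior Hox genes, 9 other TALE genes and 7 retinoic acid genes (x axis) at the 4 stages (panels), 1 point per gene, with the median of each list as a bar. At EB8 the medians are -1.04, -2.22, -1.91 and -1.09, and many Hox genes at ES and EB4 were at the limit of detection, so that their points there rest on few reads.

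Markers of other cell types moved with genotype and stage beside these results. Over all 16124 tested genes 443 were called higher in KO and 543 lower at EB4, 350 and 350 at EB5, and 1677 and 2020 at EB8. At EB8 4 of 5 pluripotency markers were higher in KO, with a summed level of 18154 and 19788 normalised read counts against 1225 and 1274 in WT. Of the neural progenitor markers 3 of 4 were lower (3838 and 3797 against 21647 and 17116), and of the neuronal markers 3 of 3 (936 and 444 against 12356 and 15956). Of these, Hes5 had 14.8 and 5.33 normalised read counts in KO EB8 and was at 3 reads or fewer in KO EB4, and Dcx had 61.2 and 88.4 in KO EB8. Hes5 met the filter on low values only through WT EB8, so that a lower KO value there was favoured in advance. At EB4, where Pbx2 and Pbx3 were called, 2 of 5 pluripotency markers were higher in KO (42937 and 55850 against 31977 and 16104), 0 of 4 progenitor markers passed (4346 and 2857 against 10258 and 8263), and 1 of 3 neuronal markers was higher. At EB5 2 of 5, 1 of 4 (lower) and 1 of 3 (higher) passed. The part of these differences in the levels of the cofactors was not tested.

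Fibroblast markers, which the feeder layer could supply, summed to 904 and 2185 normalised read counts in WT ES against 161 and 317 in KO ES, and 0 of 5 tested passed at any stage. Lum was at the limit of detection in ES. Mesoderm markers summed to 74.7 to 1477 over all libraries, and 0 of 4 tested passed. Of 4 endoderm markers, 0 passed at ES and EB4, 1 was lower in KO at EB5, where the sums were 1125 and 777 against 1128 and 2102 in WT. At EB8 2 were lower, with sums of 665 and 604 against 1779 and 1526. The part of these cells was not tested.

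Taf4a, the targeted gene, was not lower in KO at any stage (differences of 0.18 to 0.41, 0 calls), with 1591 to 1960 normalised read counts in WT and 1973 to 2400 in KO, so that a count over the whole gene does not check the labels. Its paralogue Taf4b was higher in KO at EB8 (1.10, adjusted p = 0.0040), with 832 and 916 normalised read counts against 480 and 343.

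Across the 16 libraries, which share stage and genotype, Meis1 and Meis2 had the closest profiles of any pair of members, with a Pearson r of 0.95 on the log2 scale. Meis3 was closest to Pbx3 (0.87), and Pknox1 had a negative r with each other member, from -0.37 to -0.16. Among all 16124 tested genes the profile of Meis1 was most like those of Hoxb3 (0.98) and Hoxb4 (0.98), and that of Meis2 most like 2700033N17Rik (0.99) and Cyp26a1 (0.98). Meis3 was closest to Samd14 (0.97) and Ptprd (0.97), Pbx2 to Shd (0.98) and C78339 (0.97), and Pbx3 to Camk4 (0.97) and Kif21b (0.97). Pknox1 had the least close neighbours, Scn3a (0.92) and A930011O12Rik (0.88), and Pknox2 was closest to Col2a1 (0.95) and Gm7694 (0.94). These values describe 8 groups of 2 libraries and carry no test.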

How the data were processed

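Poly-A RNA of 16 libraries was read single-end over 54 bases with a kit that does not mark strand. Per the submitters' processing notes, CASAVA 1.7 and 1.8, TopHat2 2.0.10 with the mm9 genome, HTSeq 0.5.4p3 and DESeq2 1.0.19 were used. The deposited table holds a normalised signal, that is each gene's read count divided by a size factor by the authors, and 100% of values came back as whole reads (within 0.001), 22442118 to 40711826 per library. The strand setting of the counting is not given in the sources used here.

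Values were tested as log2(value + 1) with limma 3.58.1 (trend, 16 libraries, 8 groups, R 4.3.3) over the 16124 of 27807 genes with a mean of at least 10. P-values were Benjamini-Hochberg adjusted and called under 0.05 in 13 comparisons. Alternatives were edgeR 4.0.16 and DESeq2 1.42.0 on the recovered reads, other pseudocounts (0.1 and 5), filters and scalings, a replicate block, the compared groups alone, and each library left out. The fit was also run on simulated counts with the same spread for every gene, which does not check it for genes whose libraries differ widely. Sequences came from the NCBI37 genome and RefSeq promoters, and exons from GENCODE. All members are named, each with the 2 tested genes of highest Pearson correlation with it, and of each list the 2 to 4 called genes of largest absolute log2 change. Sox1 and Map2 were not matched by name. A further gene list is not reported here. The members and lists were chosen with earlier results of these data known.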

Additional observations from a re-analysis of the deposited data

How the results depend on the processing

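The number of members called stayed within 1.5 times its main value in 146 of 154 alternatives and in 56 of 64 fits without 1 library. These shares include comparisons with a main count of 0, where another 0 was scored as unchanged. They are KO against WT at ES, the KO steps from ES to EB4 and from EB5 to EB8, and the genotype differences. Every fit without 1 library that moved was in the other comparisons. With only the compared groups in the fit, 0 members were called at EB4 and EB5, 6 at EB8, 0 for WT from ES to EB4 and 1 for WT from EB5 to EB8. The number of all genes called with only the compared groups in the fit is not given here. Over all tested genes DESeq2 called 2077 at EB4, 4626 at EB8 and 488 for the genotype difference from EB5 to EB8. The main fit called 986, 3697 and 126. Members called by DESeq2 in these comparisons were 4, 4 and 1. Without 1 library the counts were 0 to 2 at EB4, 0 to 2 at EB5, 1 to 3 for WT from ES to EB4 and 1 to 2 for WT from EB5 to EB8. Groups of 2 libraries limit all of these, and the cause was not tested.

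Signs turned for values that had not passed. With edgeR and with DESeq2 the difference in Meis2 at EB4 was -0.033 and -0.030, and the genotype difference in Pknox2 from EB4 to EB5 was 0.75. Without 1 library, the difference between KO and WT ran from -1.63 to 0.59 for Meis1 at ES, and at EB4 from -0.48 to 1.13 for Meis1, -0.71 to 0.98 for Meis2 and -3.18 to 0.38 for Pknox2. The change from ES to EB4 ran from -0.52 to 1.17 for Meis2 in WT and -0.012 to 0.11 for Pbx2 in KO, and from EB5 to EB8 in KO from -0.072 to 0.44 for Pbx3 and -0.10 to 0.17 for Pknox1. The genotype difference ran from -1.87 to 1.69 for Pknox2 and -0.015 to 0.25 for Pbx2 from EB4 to EB5, and -0.57 to 0.35 for Meis3 from EB5 to EB8.

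Same-numbered libraries are not stated to share a line or a day, and their deviations had correlations of -0.21 to 0.61 over the 10 comparisons. The raised chromosome 11 level was in KO replicate 1 at every stage, and what a replicate number marks was not tested. With the replicate number as a block, the call count was 4 in place of 3 for KO from EB4 to EB5, where Pknox2 passed (adjusted p = 0.0271 by limma), and was the same in every other comparison. With the KO numbers crossed, chosen after seeing the data, 2 members were called at EB5 and 3 at EB8.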
